A study of Mus musculus with 13 samples.

Results

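Cathepsins are the proteases of the lysosome, and 10 of them were followed by gene name in a table of 48795 genes: Ctsa, Ctsb, Ctsc, Ctsd, Ctsf, Ctsh, Ctsk, Ctsl, Ctss and Ctsz. By the chemistry of the active site, 8 are cysteine proteases, 1 (Ctsd) is an aspartic protease and 1 (Ctsa) is a serine carboxypeptidase. The members were listed by gene name and are not the whole family, of which 13 further genes in the table are described at the end. All 10 passed the filter on low counts. Cathepsins are made as inactive precursors, tagged with mannose 6-phosphate, carried to the acidic lysosome and cut there into the active enzyme. Neurons and glia depend on them for protein turnover, and the loss of some of them causes lysosomal storage disease of the brain. Microglia and other phagocytes hold a particularly rich set, which they use to digest engulfed material and to process antigens.

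mRNA of the right brain hemisphere, without olfactory bulb and cerebellum, was sequenced from mice of strain background C57BL/6J at postnatal day 11. The nlsYAP5SA group (genotype NexCre +/- YAP5SAnls +/-, n = 5) expressed a nuclear, active form of the Hippo pathway effector YAP1 in cells with a history of NEX/NeuroD6-Cre, a Cre driver of the neuronal precursor lineage of the forebrain. The control group (NexCre -/- YAP5SAnls +/-, n = 5) consisted of littermates that carried the same transgene without Cre, so that it stayed silent. A further group, called C57BL/6 here (genotype WT, n = 3), held age-matched non-littermates with neither allele. The littermates came from more than 1 mating, and no label says which mouse belonged to which litter. The paper describes tumours along the ventricles and a disturbed hippocampus in nlsYAP5SA mice, at ages before and after the one sequenced. Tumour tissue was not separated from the rest of the hemisphere. Microglia are not part of the NEX/NeuroD6 lineage, and the RNA is that of the whole tissue, so cells with and without Cre were measured together.

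Each library held between 20871566 and 25524349 estimated counts, and these ranges overlapped between the groups. Yap1 mRNA was 20.8 ± 0.99 CPM (counts in every 1000000, mean ± SD) in control and 24.1 ± 1.5 in nlsYAP5SA mice, a log2 fold change of 0.23 (adjusted p = 0.0361, edgeR), without overlap between the groups. The libraries differed in transcripts of 4 Y-linked genes. Their summed level was 91.6 to 131 CPM in all 5 control mice, between 129 and 135 CPM in nlsYAP5SA replicates 3 and 4 and at most 0.0936 CPM in the other 3, while C57BL/6 replicate 2 alone of its group had none. Sex is not given in the labels, and it differed in part along with genotype, since no control library lacked these transcripts. With their summed level as a covariate over all 10 mice, Ctss, Ctsc, Ctsz and Ctsd were called higher, beside 2.88% of all genes tested in that fit. The cathepsin values are also given for the libraries with Y-linked transcripts only (2 nlsYAP5SA against 5 control mice), an alternative chosen after the data were seen.

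Whether cathepsin mRNA differs with active YAP1 in this lineage was asked by comparing nlsYAP5SA with control hemispheres. Only nlsYAP5SA mice carried Cre and no group had Cre alone, so Cre and active YAP1 cannot be told apart. Of the 10 cathepsins, 8 rose in nlsYAP5SA mice against control and none fell (edgeR quasi-likelihood test, Benjamini-Hochberg adjusted p of 0.05 or less over all 16315 genes tested). Over all genes tested, 10.8% were called in either direction and 7.36% were called higher. The largest increases were those of Ctss and Ctsc, followed by Ctsz, Ctsd, Ctsh, Ctsa, Ctsl and Ctsb, while Ctsk and Ctsf did not pass the test. The median log2 fold change of the 10 was 0.41, beside -0.01 for all genes tested. In 7 of the 10, every nlsYAP5SA mouse lay above every control mouse, a pattern shown by 6.03% of all genes tested. In a hemisphere, more cells of a cathepsin-rich type and more RNA per cell cannot be told apart. The part of tumour tissue in these differences was not tested.

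**Figure D1:**
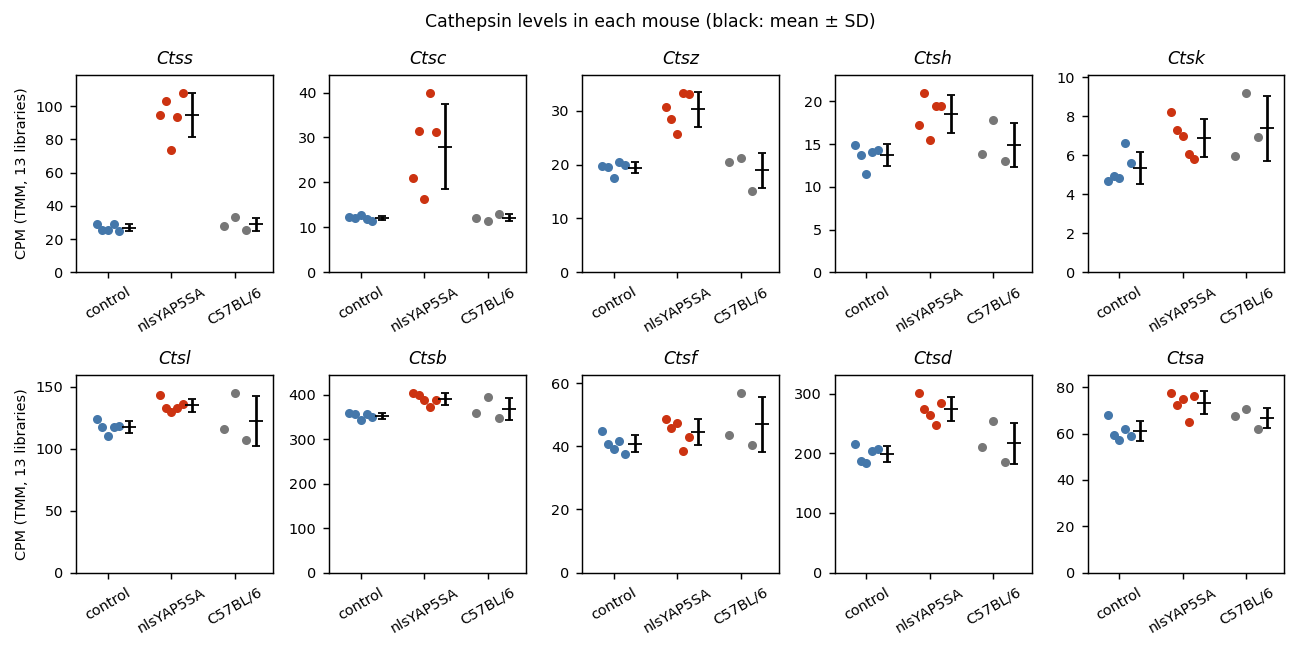
Level of each cathepsin in CPM on the vertical axis, starting at 0, with 1 point per mouse in the control (n = 5), nlsYAP5SA (n = 5) and C57BL/6 (n = 3) groups and black marks for the mean ± SD. Ctss in nlsYAP5SA mice lay between 73.4 and 108 CPM, far above the 24.8 to 29.0 CPM of control mice, whereas the groups of Ctsf and Ctsa overlapped.

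Ctss, Ctsc and Ctsz changed most. Cathepsin S, the product of Ctss, is a cysteine endopeptidase of antigen-presenting cells that cuts the invariant chain of MHC class II and, unlike most of its family, stays active at neutral pH. The gene lies on chromosome 3 of GRCm38, plus strand, from 95526786 to 95556403. The 250 bases before its start (RefSeq, GRCm38.p6, chr3:95526536-95526785, plus strand) are shown because this gene has the largest change of the set. Capitals mark GAGGAA, a core of sites bound by ETS factors, among them the myeloid factor PU.1. It occurs in 28.3% of all promoter windows described below.
Ctss: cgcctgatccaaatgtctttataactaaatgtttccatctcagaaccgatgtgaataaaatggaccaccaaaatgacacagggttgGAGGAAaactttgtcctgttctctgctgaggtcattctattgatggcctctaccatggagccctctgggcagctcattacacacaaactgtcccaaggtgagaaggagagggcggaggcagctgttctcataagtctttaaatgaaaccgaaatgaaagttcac
Ctss was measured at 29.0, 25.2, 25.6, 28.9 and 24.8 CPM in control replicates 1 to 5. In nlsYAP5SA replicates 1 to 5 it was 94.8, 103, 73.4, 93.5 and 108 CPM. The lowest nlsYAP5SA mouse was thus well above the highest control, and replicate 3 was the lowest of its group. The log2 fold change was 1.84 (SE 0.098, 95% interval 1.62 to 2.05, adjusted p = 3.12e-07), a 3.57-fold difference. It was the 9th gene of 16315 by p-value and the 118th by increase. With Y-linked libraries only it was 1.65 (adjusted p = 0.000135).

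Cathepsin C, or dipeptidyl peptidase I, removes dipeptides from the N-terminus and is known for activating the granule serine proteases of neutrophils, mast cells and cytotoxic lymphocytes. Ctsc lies on chromosome 7, plus strand, from 88278085 to 88310888. The bases before its start (chr7:88277835-88278084, plus strand) held the same core at 2 places, both on the opposite strand and so read as TTCCTC in capitals.
Ctsc: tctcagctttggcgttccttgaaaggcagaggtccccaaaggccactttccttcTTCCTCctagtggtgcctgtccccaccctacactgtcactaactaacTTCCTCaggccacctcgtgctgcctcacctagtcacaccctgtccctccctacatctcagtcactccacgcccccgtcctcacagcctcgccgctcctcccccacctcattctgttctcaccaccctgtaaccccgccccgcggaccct
Control mice were tightly grouped for Ctsc, at 12.3, 12.1, 12.7, 11.8 and 11.4 CPM in replicates 1 to 5. The nlsYAP5SA mice were not, with 20.9, 31.4, 16.2, 40.0 and 31.2 CPM. All 5 were above every control, but the highest was 2.47 times the lowest, against 1.12 times within control, and none of the other 9 varied as much in any group. The log2 fold change was 1.22 (SE 0.20, 95% interval 0.80 to 1.65, adjusted p = 0.0014), and 1.22 again in the Y-linked libraries (adjusted p = 0.0453), where the 2 nlsYAP5SA mice were the lowest and the highest of the group. Markers of neutrophils and cytotoxic lymphocytes were scarce, and mast cells were not examined. The summed level of 8 neutrophil markers was at most 0.823 CPM and that of 6 markers of cytotoxic lymphocytes at most 0.172 CPM in any library, and none of these markers passed the filter.

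Cathepsin Z is a carboxypeptidase that takes single residues from the C-terminus. Ctsz (chromosome 2, minus strand, 174427493 to 174439039) was 19.8, 19.6, 17.6, 20.4 and 19.9 CPM in control replicates 1 to 5 and 30.8, 28.4, 25.7, 33.4 and 33.1 CPM in nlsYAP5SA mice. The groups did not overlap, and replicate 3 was again the lowest of the nlsYAP5SA mice. The log2 fold change was 0.65 (SE 0.080, 95% interval 0.48 to 0.82, adjusted p = 0.000211), and it was 0.61 (adjusted p = 0.0267) in the libraries with Y-linked transcripts. Ctss, Ctsc and Ctsz were the 3 cathepsins called higher there, where 1.81% of all genes tested were called higher. All 10 had a higher mean in that subset as well, and the 2 mutant mice lay above every control for 7 of them, as they did for 8.38% of all genes tested in that subset.

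The other cysteine cathepsins moved less. Cathepsin H, which is mainly an aminopeptidase, was encoded by an mRNA of 13.7 ± 1.3 CPM in control and 18.6 ± 2.2 CPM in nlsYAP5SA mice. The lowest nlsYAP5SA mouse for Ctsh (15.5 CPM) was just above the highest control (14.9 CPM), and the log2 fold change was 0.45 (SE 0.099, adjusted p = 0.0114). Cathepsin L, an endopeptidase of lysosomal protein turnover, showed a smaller shift that was nevertheless free of overlap. Ctsl ranged from 110 to 124 CPM in control and from 130 to 143 CPM in nlsYAP5SA mice, with a log2 fold change of 0.21 (SE 0.051, adjusted p = 0.0171). Cathepsin B combines endopeptidase with dipeptidyl carboxypeptidase activity, and Ctsb was the most highly counted of the 10, at 342 to 359 CPM in control and 372 to 404 CPM in nlsYAP5SA mice. Its log2 fold change was 0.16 (SE 0.045, adjusted p = 0.0403), the smallest that was called. None of these 3 was called in the libraries with Y-linked transcripts, where the log2 fold changes were 0.35 for Ctsh (adjusted p = 0.313), 0.17 for Ctsl (adjusted p = 0.482) and 0.11 for Ctsb (adjusted p = 0.667). Without nlsYAP5SA replicate 5, Ctsl and Ctsb were not called in the full comparison either (adjusted p = 0.0512 for Ctsl), and Ctsb kept its call in only 2 of the 10 fits that left out 1 mouse. Ctsb also overlaps at its 3′ end with Fdft1 on the opposite strand, whose log2 fold change was -0.33 (adjusted p = 0.0395), and a strand setting of the counting is not stated.

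Ctsk and Ctsf did not pass the test. Cathepsin K is the collagen-degrading enzyme of osteoclasts, and its gene lies 17.4 kb upstream of Ctss on the same strand, from 95499256 to 95509362. Ctsk was the least abundant of the 10 in counts, at 4.69, 4.92, 4.85, 6.65 and 5.60 CPM in control and 8.25, 7.30, 7.02, 6.05 and 5.82 CPM in nlsYAP5SA mice. The groups overlapped, since control replicate 4 was above 2 of the nlsYAP5SA mice, and the log2 fold change was 0.38 (95% interval 0.10 to 0.65, adjusted p = 0.0804). Among 20 alternative fits it was called only when control replicate 4 was left out (adjusted p = 0.0332). Cathepsin F carries a cystatin-like domain in its proregion and is mutated in an adult form of neuronal ceroid lipofuscinosis. Ctsf was 40.8 ± 2.7 CPM in control and 44.6 ± 4.1 CPM in nlsYAP5SA mice, a log2 fold change of 0.14 (95% interval -0.02 to 0.30, adjusted p = 0.262), with overlapping groups.

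The aspartic protease cathepsin D cuts proteins inside the chain and is indispensable for neurons, as its loss causes a congenital form of neuronal ceroid lipofuscinosis. Ctsd lies on chromosome 7, minus strand, from 142375911 to 142388038. Many lysosomal genes share a CLEAR element, the E-box bound by TFEB and its relatives. Its core TCACGTG occurred at 2 places of the Ctsd window, both on the 5′ side of the RefSeq start. That start lies inside the limits given above, which are those of GENCODE, so the place nearer to it is within the gene by that annotation. It is shown with its surroundings (chr7:142387910-142387939, minus strand), and the capitals mark TCACGTGA, which matches on both strands.
Ctsd: cctcgcccgcgtcTCACGTGAcccgttgag
Ctsd was 215, 188, 184, 203 and 207 CPM in control replicates 1 to 5 and 302, 274, 264, 248 and 285 CPM in nlsYAP5SA mice. Every nlsYAP5SA mouse exceeded every control, and the log2 fold change was 0.47 (SE 0.067, 95% interval 0.33 to 0.62, adjusted p = 0.000614). In the Y-linked libraries it was 0.36 and not called (adjusted p = 0.0823), with both nlsYAP5SA mice still above all controls. The gene model Gm49369 overlaps Ctsd on the same strand, and the authors' counting divides shared reads between them. Gm49369 rose by a log2 fold change of 0.75 (adjusted p = 0.00446) and held between 8.71% and 15.4% of the sum of both in any library. The summed level of Ctsd and Gm49369 was 224 ± 11 CPM in control and 316 ± 28 CPM in nlsYAP5SA mice, a log2 ratio of means of 0.49, so the Ctsd difference was as large with both counted together.

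Cathepsin A is a serine carboxypeptidase that also protects beta-galactosidase and neuraminidase 1 in a lysosomal complex. Its gene lies on chromosome 2, plus strand, from 164832873 to 164841032. The RefSeq table has 2 starts for it, and around the second (chr2:164833757-164833786, plus strand) the palindromic TCACGTGA occurs on either side of the start.
Ctsa: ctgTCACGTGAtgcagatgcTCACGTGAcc
Ctsa was 68.0, 59.4, 57.1, 62.0 and 59.1 CPM in control replicates 1 to 5 and 77.6, 72.5, 74.9, 65.0 and 76.3 CPM in nlsYAP5SA mice. The groups overlapped, since nlsYAP5SA replicate 4 fell below control replicate 1. The log2 fold change was 0.27 (SE 0.065, adjusted p = 0.0173), and the call was lost without nlsYAP5SA replicate 5 (adjusted p = 0.0528) and in the Y-linked libraries (0.20, adjusted p = 0.504). The partners of the complex did not pass the test. Log2 fold changes were -0.07 for Neu1 (neuraminidase 1, adjusted p = 0.607), 0.02 for Glb1 (beta-galactosidase, adjusted p = 0.898) and 0.27 for Galns (adjusted p = 0.108). Pltp, which overlaps Ctsa on the opposite strand, had a log2 fold change of -0.15 (adjusted p = 0.193).

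**Figure D2:**
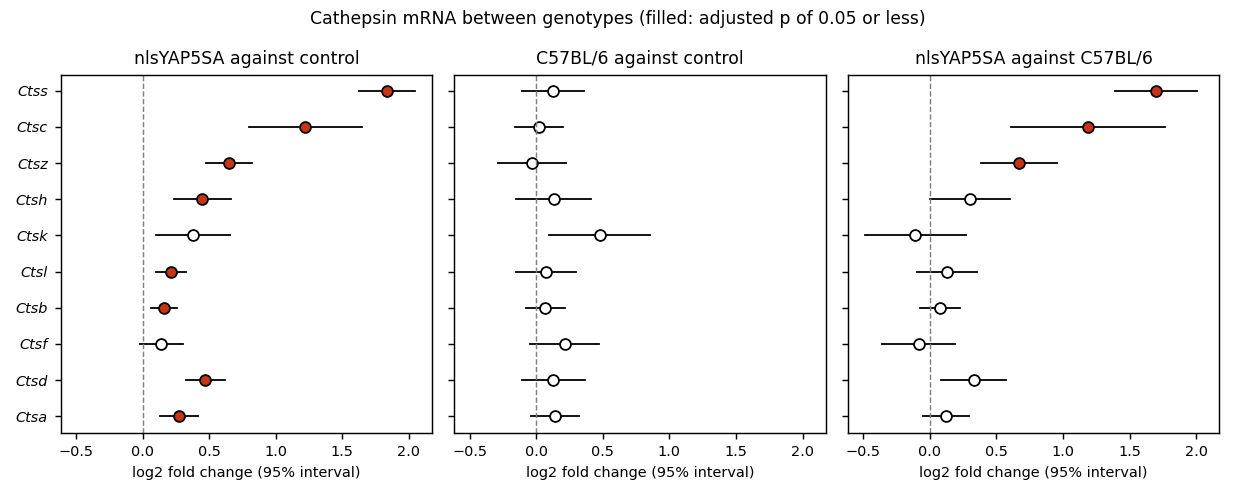
Log2 fold change of each cathepsin (points) with its 95% interval (lines) on the horizontal axis for the 3 comparisons, filled where the adjusted p is 0.05 or less. In nlsYAP5SA against control 8 points are filled, led by Ctss at 1.84 and Ctsc at 1.22, in C57BL/6 against control none, and in nlsYAP5SA against C57BL/6 the 3 of Ctss, Ctsc and Ctsz.

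Promoter windows for 8 of the 10 cathepsins were found in the RefSeq table, running from 250 bases before to 50 bases after the start, with 2 windows for Ctsa and none for Ctsb and Ctsh. Both strands were searched for 3 cores. TCACGTG occurred in the windows of Ctsa and Ctsd and in 3.77% of all 32851 windows. GAGGAA occurred in those of Ctsc, Ctsk and Ctss and in 28.3% of all windows. GGAATG, the core bound by the TEAD partners of YAP1, occurred in none of the cathepsin windows and in 14.7% of all. These are matches of letters and not measurements of binding.

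The comparison of C57BL/6 with control mice asks how far the controls, which carry the silent transgene, differ from wild-type mice. None of the 10 cathepsins was called, where 0.169% of all genes tested were called. The log2 fold changes ran from -0.03 for Ctsz to 0.48 for Ctsk, with a median of 0.13 against 0.00 over all genes. Ctsk, with a 95% interval of 0.09 to 0.86, was the 1 cathepsin that edgeR put under the threshold before adjustment. None was called by DESeq2, with or without a prior on fold changes. For Ctss the difference was 0.13 (95% interval -0.11 to 0.36) and for Ctsc 0.02 (95% interval -0.16 to 0.20). C57BL/6 replicate 2, the mouse without Y-linked transcripts, was the highest of its group for 9 of the 10 cathepsins. The share of all genes that were highest in this mouse is not given here. Among nlsYAP5SA mice, the 3 without these transcripts all lay above the 2 with them for Ctsb, Ctsd, Ctsl and Ctss, as did 7.43% of all genes tested, and the other 6 cathepsins overlapped. Without C57BL/6 replicate 2 the median log2 fold change was 0.01. Ctsk was 5.95, 9.23 and 6.97 CPM in C57BL/6 replicates 1 to 3, and replicate 1 lay within the range of control.

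nlsYAP5SA against C57BL/6 shares its mutant mice with the first comparison. Ctss, Ctsc and Ctsz were called higher, where 4.16% of all genes tested were, and no cathepsin was called lower. Ctss was 28.0, 33.3 and 25.4 CPM in the C57BL/6 mice, none near the nlsYAP5SA range, and its log2 fold change was 1.70 (SE 0.14, adjusted p = 0.000165). Ctsc was 12.1, 11.4 and 12.96 CPM, with a log2 fold change of 1.19 (SE 0.26, adjusted p = 0.0255). Ctsz was 20.4, 21.2 and 15.2 CPM, with 0.67 (SE 0.13, adjusted p = 0.0149). None of these 3 overlapped between the groups, where every nlsYAP5SA mouse lay above every C57BL/6 mouse for 8.51% of all genes tested. The call of Ctss held in all 8 fits that left out 1 mouse, that of Ctsz in 7 and that of Ctsc in 4, and without C57BL/6 replicate 1 only Ctss was called. The calls of Ctsc and Ctsz were also lost in the libraries with Y-linked transcripts, with a block for replicate number, and with replicates 1 to 3 alone. Ctsd differed by 0.33 (95% interval 0.09 to 0.57, adjusted p = 0.114). It was called without C57BL/6 replicate 2 (adjusted p = 0.0277) and, beside the other 3, by DESeq2 with and without a prior and in a joint fit of all 13 libraries. Ctsh differed by 0.30 (adjusted p = 0.231), and the 95% intervals of the other 5 covered 0.

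**Figure D3:**
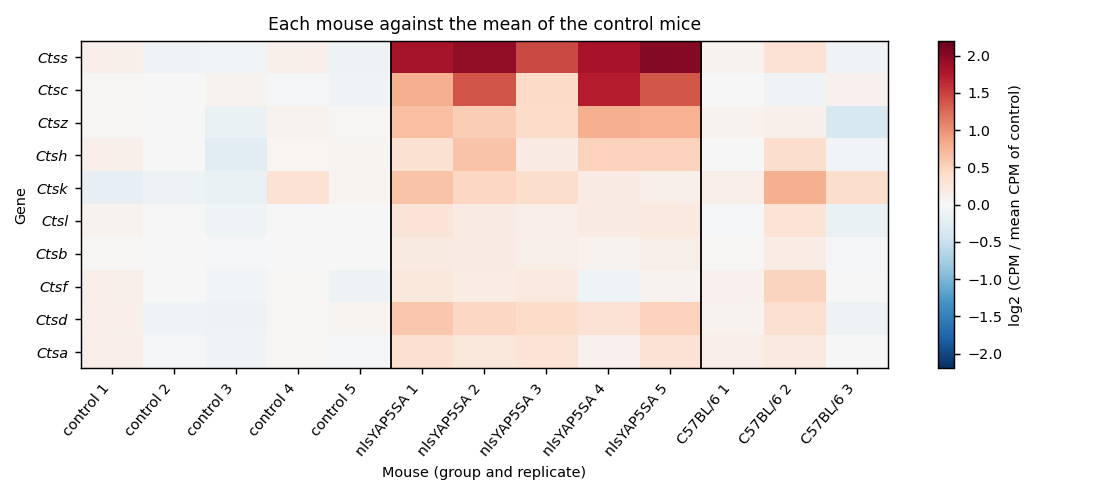
Log2 ratio of each mouse to the mean of the control mice (colour scale), with genes as rows and the 13 mice as columns in the order control, nlsYAP5SA and C57BL/6. Ctss is dark red in all 5 nlsYAP5SA mice, Ctsc ranges from pale to dark within that group, and C57BL/6 replicate 2 is above the control mean for most cathepsins, with Ctsk highest.

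To compare genes with each other, counts were divided by merged exon length and scaled to the same sum in every library. On this length-scaled level, Ctsd (264 ± 21 in control) and Ctsb (181 ± 11) led, followed by Ctss (61.2 ± 6.5), Ctsl (56.2 ± 3.1), Ctsz (42.0 ± 3.8), Ctsa (40.2 ± 2.8), Ctsf (25.1 ± 1.8), Ctsk (11.1 ± 2.3), Ctsh (9.46 ± 0.93) and Ctsc (6.46 ± 0.42). Neighbours whose control mice overlapped were Ctss with Ctsl, Ctsz with Ctsa, and Ctsk with Ctsh. In nlsYAP5SA mice Ctss reached 221 ± 37, second after Ctsd (371 ± 46) and overlapping with Ctsb (205 ± 17). Ctsc moved from the tenth place to the eighth, at 15.2 ± 4.9, where it overlapped with Ctsk. The share of Ctss in the summed length-scaled level of the 10 was 8.77% ± 0.46 in control, 8.87% ± 0.09 in C57BL/6 and 21% ± 2.1 in nlsYAP5SA mice, while Ctsb and Ctsd together made up 63.9% ± 0.62, 63.7% ± 0.29 and 54.9% ± 2.1. Dividing by the longest transcript in place of the merged exons left Ctsd and Ctsb in front in control but raised Ctsf from the seventh place to the fourth. In nlsYAP5SA mice it put Ctss after Ctsd and Ctsb, and Ctsc went from the ninth place to the eighth on that scale.

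Whole tissue was sequenced, so the level of each cathepsin was set beside markers of the cells that could hold it. Over all genes tested in nlsYAP5SA against control, 7.36% were called higher and 10.8% in either direction. Of 10 microglia markers, 6 were called higher in nlsYAP5SA mice and none lower, with a median log2 fold change of 0.36, and 1, Csf1r, was called in the libraries with Y-linked transcripts. Their summed level was 281 to 357 CPM in control, 307 to 331 in C57BL/6 and 364 to 495 in nlsYAP5SA mice, without overlap. Csf1r (0.76, adjusted p = 0.000248), Cx3cr1 (0.68, adjusted p = 0.000491), Aif1 (0.84, adjusted p = 0.00148) and Itgam (1.05, adjusted p = 0.00967) rose, as did Tmem119 and Sall1, whereas P2ry12 differed by 0.07 (adjusted p = 0.749) and Siglech by 0.12 (adjusted p = 0.385). Of 6 markers of border macrophages 2 were called higher (median 0.19), and their sums overlapped (17.7 to 29.7 CPM in control and 25.9 to 40.6 CPM in nlsYAP5SA mice). Of 8 astrocyte markers 4 were called higher (median 0.30), with overlapping sums. Of 6 ependymal markers 2 were called higher (median 0.54), and their sums, 12.2 to 26.0 CPM in control and 27.2 to 29.5 CPM in nlsYAP5SA mice, did not overlap. The median log2 fold change of 6 choroid plexus markers was 0.77 with 1 called higher, but their sums ran from 9.21 to 234 CPM within control and from 10.7 to 304 CPM within nlsYAP5SA mice. None of 8 oligodendrocyte markers was called by edgeR, although DESeq2 called 2 and 6 had an unadjusted p under the threshold. Their median was -0.48, with sums of 2180 to 3675 CPM in control and 1394 to 2978 CPM in nlsYAP5SA mice. Of 6 endothelial markers 2 fell and none rose (median -0.32), and of 6 fibroblast markers 2 rose and 1 fell (median 0.27). Of 8 neuron markers 1 was called, Neurod6, at a log2 fold change of -0.98 (median of the list -0.06). The Cre of this driver is inserted in the Neurod6 gene, with 1 copy in nlsYAP5SA mice and none in control mice, so the inserted allele and a change in neurons cannot be told apart for this marker. The sums of the neuron, oligodendrocyte, endothelial, fibroblast and choroid plexus lists overlapped between control and nlsYAP5SA mice. In the libraries with Y-linked transcripts 1 marker each of astrocytes, fibroblasts and neurons was called. None was called there among those of border macrophages, ependyma, choroid plexus, oligodendrocytes and endothelium. The part of any of these cells in the cathepsin differences was not tested.

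Ctss differed between the groups by more than the summed microglia markers did. Per 100 CPM of summed microglia markers it was 8.45 ± 1.2 CPM in control, 9.08 ± 0.89 in C57BL/6 and 21.1 ± 1.5 in nlsYAP5SA mice, 2.49 times the control mean, and the control range of 7.32 to 10.3 did not meet the nlsYAP5SA range of 18.9 to 22.4. Ctsc per 100 CPM was 3.32 to 4.40 in control and 4.46 to 8.08 in nlsYAP5SA mice, a narrow gap. On this ratio every nlsYAP5SA mouse was above every control in 1.68% of all genes tested and below in 39.1%, and among the 10 cathepsins Ctss and Ctsc were above and none was below. Ctsz, at 5.25 to 7.07 and 6.06 to 7.28, overlapped, as did the other 7. Ctsd per 100 CPM of markers was 63.2 ± 8.7 in control and 62.0 ± 9.7 in nlsYAP5SA mice.

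**Figure D4:**
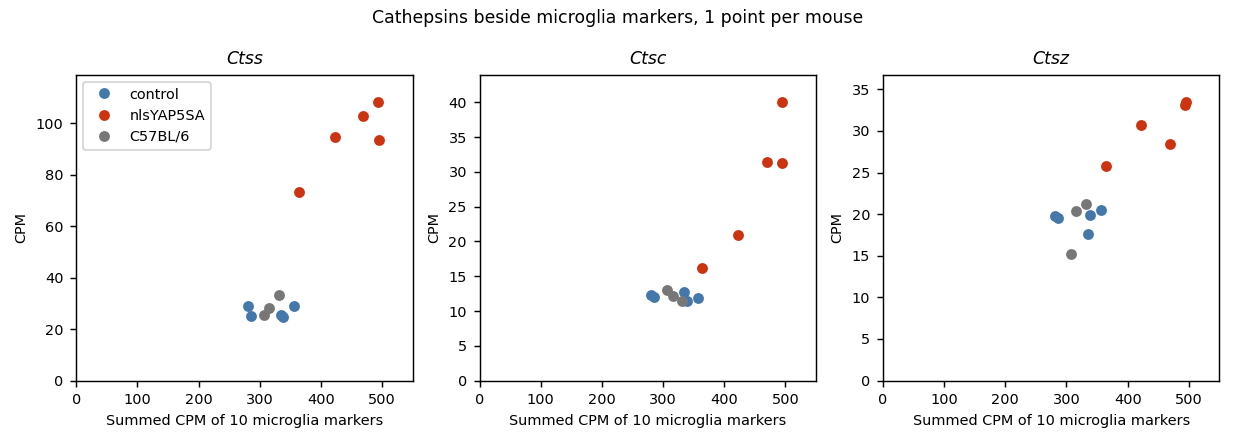
CPM of Ctss, Ctsc and Ctsz (vertical axes, from 0) against the summed CPM of 10 microglia markers (horizontal axis, from 0), 1 point per mouse, coloured by group. nlsYAP5SA mice lie to the right of all others, at 364 to 495 CPM of markers, and for Ctss they also stand well above, at 73.4 to 108 CPM.

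Across the 13 libraries the 45 pairs of cathepsins had a median Pearson r of 0.73 on log2(CPM + 0.5), and 0.54 after the group means were removed, given here as a description since the libraries share groups and depth. Within groups, Ctsb and Ctsf (r = 0.93), Ctsd and Ctsl (0.91) and Ctsb and Ctsd (0.89) ran together. Ctsc stood apart. All 6 pairs with a negative within-group r involved it, with Ctsf at -0.52 and Ctsa at -0.48 the most negative. nlsYAP5SA replicate 4 shows this, as it had the highest Ctsc (40.0 CPM) and the lowest Ctsa (65.0 CPM), Ctsb, Ctsd and Ctsf of its group. The SD of Ctsc was 33.7% of its mean in nlsYAP5SA, 4.2% in control and 6.4% in C57BL/6 mice. Its within-group r therefore rests mostly on the nlsYAP5SA mice. The genes outside the set with the most similar pattern over the 13 libraries were, for Ctsc, Ms4a4c (r = 0.98) and Clec7a (0.98), the latter encoding the beta-glucan receptor dectin-1 of phagocytes. For Ctss they were Angpt4 (0.99) and Gfap (0.99), the astrocyte filament protein, but these fell to 0.79 and 0.70 within groups. For Ctsb they were Sparc (0.96) and Sat1 (0.93), for Ctsd Sparc (0.97) and Tcn2 (0.96), and for Ctsa Cacna1s (0.95) and Tcn2 (0.94). For Ctsh they were Naglu (0.96) and B2m (0.96), for Ctsl Prdx6 (0.96) and Rnaset2b (0.95), and for Ctsz Capn3 (0.98) and Igfbp2 (0.97). Ctsf (Zfas1 and Acsf3, 0.93 and 0.91) and Ctsk (Tha1 and Scg3, 0.88 and 0.87) had the least similar nearest genes.

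Of 13 further genes named cathepsin, 3 passed the filter. Ctso, another cysteine protease, rose from 24.7 ± 1.8 to 32.4 ± 3.9 CPM (log2 fold change 0.40, adjusted p = 0.00981), with overlap between the groups. In the libraries with Y-linked transcripts edgeR called none of the 3, and 2 had an unadjusted p under the threshold. Ctse, an aspartic protease of the endosome, had 0 to 5 counts in control mice and 12 to 25 in nlsYAP5SA mice, a fitted log2 fold change of 3.18 (adjusted p = 0.000824). It passed the filter only through the nlsYAP5SA mice, where it was high, so its call carries no weight of its own. Ctsw, which belongs to cytotoxic lymphocytes, was at 0.80 CPM in control and 0.44 CPM in nlsYAP5SA mice (adjusted p = 0.128). Ctsg, a granule protease of neutrophils that cathepsin C activates, had 2 counts in all 13 libraries, and the 9 others, which are known from the rodent placenta or resemble Ctsl, had none.

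Of 20 endogenous inhibitors listed, 8 were tested and 1, Serpina3n, was called higher, beside 7.36% of all genes tested (log2 fold change 2.55, adjusted p = 0.000483). It encodes a secreted serpin of reactive astrocytes that targets serine rather than cysteine proteases. Cystatin C, the main secreted inhibitor of cysteine cathepsins, is encoded by Cst3, which was 458 ± 21 CPM in control and 555 ± 102 CPM in nlsYAP5SA mice (0.29, adjusted p = 0.126). Cstb, the cytosolic cystatin, differed by 0.07 (adjusted p = 0.672). Cst7, a cystatin of activated microglia, did not pass the filter of this comparison, with at most 20 counts in a library. It was at 0 to 0.118 CPM in control and 0.172 to 0.871 CPM in nlsYAP5SA mice. In nlsYAP5SA against C57BL/6 it was tested and not called (adjusted p = 0.0957, edgeR).

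Of 16 genes for processing and sorting, all tested, 3 were called higher, beside 7.36% of all genes tested. In the libraries with Y-linked transcripts 2 of the 16 were called. Lgmn, the asparaginyl endopeptidase that trims cathepsins, went from 118 ± 4.6 to 161 ± 11 CPM (0.46, adjusted p = 0.000234). Grn, the precursor of the granulins that bind cathepsin D, rose by 0.63 (adjusted p = 6.79e-05), and Scarb2, the carrier of glucocerebrosidase, by 0.17 (adjusted p = 0.0445). The mannose 6-phosphate receptors Igf2r (-0.06, adjusted p = 0.83) and M6pr (0.06, adjusted p = 0.461), sortilin (Sort1, 0.00, adjusted p = 0.993) and prosaposin (Psap, 0.15, adjusted p = 0.111) did not pass the test.

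Among 37 other lysosomal hydrolases, 10 were called higher and none lower, with a median log2 fold change of 0.17. They were led by Man2b2, an alpha-mannosidase (1.09, adjusted p = 9.13e-06), and Scpep1, a serine carboxypeptidase (0.72, adjusted p = 1.73e-05). In the libraries with Y-linked transcripts 3 of the 37 hydrolases were called. Tpp1, tripeptidyl peptidase, differed by 0.12 (adjusted p = 0.373). Of 17 lysosomal membrane genes tested, 4 were called higher, and in the libraries with Y-linked transcripts edgeR called none of the 17, with 4 unadjusted p-values under the threshold. Cd68 (0.77, adjusted p = 0.00162) and Laptm5 (0.73, adjusted p = 0.000614) are proteins of phagocytes and blood cells, and Lamp2 (0.43, adjusted p = 0.00514) is a general membrane protein whose sister Lamp1 differed by 0.09 (adjusted p = 0.247). None of 20 subunits of the V-ATPase, the proton pump of the lysosome, was called by edgeR or DESeq2, with a median of -0.06 and 1 unadjusted p under the threshold. None of 3 MiT/TFE factors was called by either tool, with Tfeb at -0.17 (adjusted p = 0.355), Tfe3 at 0.04 (adjusted p = 0.72) and Mitf at 0.20 (adjusted p = 0.31), and no unadjusted p under the threshold. Tfec was too low to be tested. Over the 7 lists together, 20 of 104 tested genes (19.2%) were called higher and none lower, or 19 of 103 without Ctse, beside 7.36% of all genes. In the libraries with Y-linked transcripts 6 were called, all higher, where 1.81% of all genes were called higher.

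**Figure D5:**
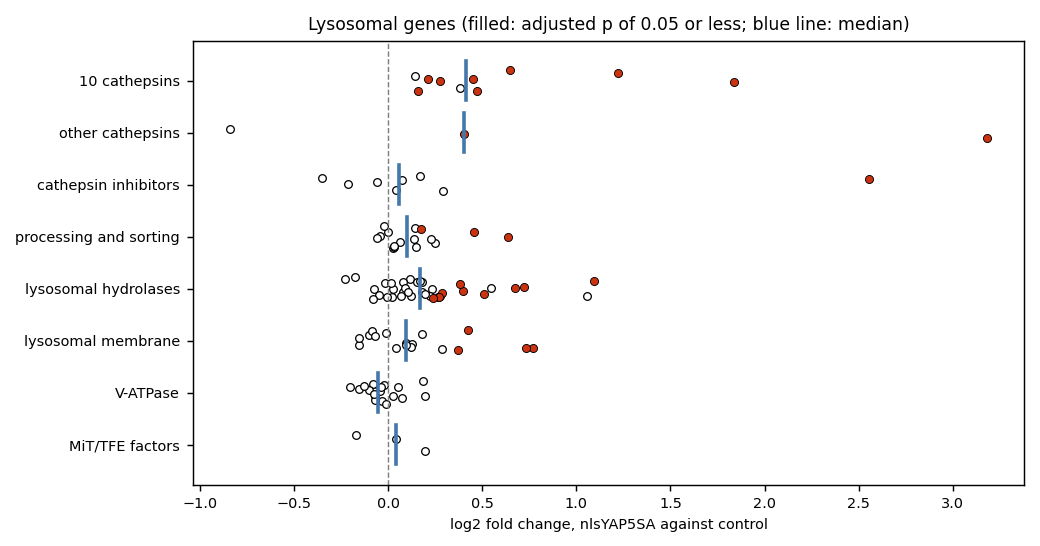
Log2 fold change of nlsYAP5SA against control (horizontal axis) for each tested gene of the 10 cathepsins and 7 further lists (rows), filled where the adjusted p is 0.05 or less, with a blue line at the median of each list. The median of the 10 cathepsins is 0.41, that of the hydrolases 0.17 and that of the V-ATPase -0.06, and no filled point lies below 0.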

How the data were processed

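Reads were trimmed (cutadapt 1.5) and aligned by STAR against GRCm38, and the authors deposited the estimated counts per gene that RSEM 1.3.0 returned, in 1 table and without normalization. A read matching several genes is split between them, so 12.4% to 13.3% of the values of a library were fractional and were rounded to whole numbers. All 13 libraries were used, grouped by the labels, and each is 1 mouse. No pair of libraries of a group agreed within sampling noise (the lowest chi-square per degree of freedom was 5.56). GENCODE M21 gave gene names and GRCm38 positions.

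Counts were normalized with TMM, filtered with filterByExpr (minimum count 10, minimum total 15) and tested between the 2 groups compared with edgeR's quasi-likelihood test (two-sided, Benjamini-Hochberg over all genes tested, called at 0.05 or less). Software was edgeR 4.0.16 and DESeq2 1.42.0 under R 4.3.3. CPM values use TMM factors over all 13 libraries. The fits were tested on simulated counts. Counts are reads, not molecules. The cathepsins, the lysosomal and marker lists and the tests were chosen with earlier results of these data known. Named were all 10 cathepsins, every other tested gene named cathepsin, a list of partner genes, the 3 called genes with the largest change in each lysosomal list, the 2 genes most like each cathepsin, Yap1 and microglia markers; overlapping genes, Neurod6, and the replicates discussed were added after their values were seen. The fits were repeated with other scalings (size factors of DESeq2, or total counts only), other filters (none, or 10 counts in every sample), DESeq2's own test with or without a prior, a joint fit of the 3 groups, a block for replicate number, a covariate for 4 Y-linked genes, and each mouse left out in turn. Libraries with Y-linked transcripts only, and replicates 1 to 3 without the block, were added after the data were seen. Protein sequences were not used here. One gene that the naming rule selects is not reported here.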

Additional observations from a re-analysis of the deposited data

Results flagged for a closer look

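Serpina3n in control replicate 5 was 32.99 CPM, while the other 4 control mice lay between 7.97 and 10.3 CPM. The gap to the nearest mouse was 0.907 of the range of the group. The lowest nlsYAP5SA mouse was still above this value. Cst7 in control replicate 2 was 0.118 CPM, with the other 4 control mice at 0, a difference of a few counts. None of the 10 cathepsins had such an outlying mouse in the control or the nlsYAP5SA group. Of 110 groups of 5 mice examined, over the cathepsins and the other genes named by rule, these 2 stood out, where the 95% critical value lets about 1 in 20 do so by chance.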

How the results depend on the processing

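In nlsYAP5SA against control, all alternatives kept the direction of all 10 cathepsins. Ctss, Ctsc and Ctsz were called in all 20 alternatives, Ctsd in 19, Ctsh in 18, Ctsa in 17, Ctsl in 15, Ctsb in 6, Ctsk in 1 and Ctsf in none. With the Y-linked level as a covariate, 4 cathepsins (Ctss, Ctsc, Ctsz and Ctsd), 556 of all genes and 11 genes of the 7 lysosomal lists were called, and the median log2 fold change of the 10 cathepsins was 0.33. In libraries with Y-linked transcripts only, these values were 3, 332, 6 and 0.33. With fewer mice, or a covariate that follows the groups, a lower count is partly a matter of construction. Leaving out 1 mouse gave 5 to 8 called cathepsins, with 5 without nlsYAP5SA replicate 5.

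In C57BL/6 against control no setting called a cathepsin, and their median log2 fold change was 0.0068 with the Y-linked covariate, 0.0087 in libraries with Y-linked transcripts only and 0.0087 to 0.19 without 1 mouse. The count of all genes, 28, was 16 with at least 10 counts in every sample, 59 and 56 with DESeq2 without and with a prior, 44 with all 13 samples in 1 fit and 14 with replicates 1 to 3 only. In nlsYAP5SA against C57BL/6, replicates 1 to 3 alone left 1 cathepsin (Ctss) and 470 genes called, and libraries with Y-linked transcripts left 1 (Ctss) and 47. DESeq2 with or without a prior and all 13 samples in 1 fit called 4 cathepsins, Ctsd being added, and DESeq2 without a prior called 1596 genes, against 1061. Leaving out 1 mouse gave 1 to 3 cathepsins and 402 (without C57BL/6 replicate 1) to 1757 genes (without C57BL/6 replicate 3). The cause of these differences was not tested.

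Deviations from the group means correlated at -0.31 to 0.31 between control and nlsYAP5SA mice with the same replicate number. For different numbers the range was -0.34 to 0.38. Between C57BL/6 and control mice the ranges, in the same order, were -0.02 to 0.49 and -0.55 to 0.49. Between nlsYAP5SA and C57BL/6 mice they were -0.275 to 0.073 and -0.365 to 0.33. Such correlations cannot show whether replicate numbers follow litters, which the labels do not give. With the replicate block, 7 cathepsins were called in nlsYAP5SA against control, the call of Ctsb being lost. In nlsYAP5SA against C57BL/6 it left 1 cathepsin (Ctss) and 25 genes called, and in C57BL/6 against control 15 genes and no cathepsin.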
